A study of Mus musculus with 6 samples.

Results

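The 10 genes followed were Cd27, Cd28, Icos, Tnfrsf4, Tnfrsf9, Tnfrsf18, Tnfrsf1a, Tnfrsf1b, Fas and Fasl. They encode costimulatory and tumour necrosis factor (TNF) family proteins of T cells. Each probe set whose single gene symbol in the platform annotation was one of them was taken, which gave 10 of the 15965 named genes. They were measured 17 times by 15 different probe sets, 14 times on the array type SubA, 2 times on SubB and 1 time on SubC. All 17 values lay above the floor on both arrays of their table. The floor, below which a signal was not separated from that of bacterial control probe sets, was at 31.28 for SubA, 88.12 for SubB and 194.34 for SubC.

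The cells were CD8+ T cells made in culture from spleen and lymph nodes of female P14 mice, C57Bl/6 animals whose transgenic T cell receptor recognises a viral peptide. Whole cell suspensions of both kinds received that peptide for 2 days, and the cultures were then kept in IL-15 or in IL-2 for 7 days. The cultures kept in IL-15 (labelled central memory, CM) and those kept in IL-2 (labelled effector/effector memory, E/EM) were each sorted for the surface phenotype that predominated, and are called IL-15 cells and IL-2 cells here. The labels name no animals, ages, pools or cytokine doses. Each kind was hybridised to 1 SubA, 1 SubB and 1 SubC array, whose probe sets differ apart from shared controls. There were therefore no replicates, no test and no p-value, and the spread given is the standard deviation (SD) over probe sets, which is technical.

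The TNF receptor family has members with and without a death domain. Fas and the TNF receptor Tnfrsf1a carry one, through which they can recruit adaptors and caspases, whereas Cd27, Tnfrsf4 (OX40), Tnfrsf9 (4-1BB), Tnfrsf18 (GITR) and Tnfrsf1b bind TRAF adaptors and signal to NF-kB. Cd28 and Icos belong to the immunoglobulin family and act beside the T cell receptor through phosphoinositide 3-kinase and related pathways. In T cells Cd27 and Cd28 are present before antigen is met, while Icos, Tnfrsf4 and Tnfrsf9 are induced by stimulation, and Fasl, the ligand of Fas, is a killing molecule of activated cytotoxic cells.

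Promoter sequences were examined for 8 of the genes, which had 9 promoters in the RefSeq table of build GRCm38.p6; each window runs from 250 bases before to 50 bases after the annotated start. Those of Cd27, of the adjacent genes Tnfrsf4 and Tnfrsf18 and of both starts of Tnfrsf9 are shown, because these genes hold the largest ratios of both directions and a pair of neighbours with unlike ratios. Capitals mark matches, on either strand, to TTCNNNGAA (STAT5, the factor activated by both IL-2 and IL-15), TGANTCA (AP-1) or GGAAAA (NFAT core).
Cd27 (chr6:125236978-125237277, minus strand): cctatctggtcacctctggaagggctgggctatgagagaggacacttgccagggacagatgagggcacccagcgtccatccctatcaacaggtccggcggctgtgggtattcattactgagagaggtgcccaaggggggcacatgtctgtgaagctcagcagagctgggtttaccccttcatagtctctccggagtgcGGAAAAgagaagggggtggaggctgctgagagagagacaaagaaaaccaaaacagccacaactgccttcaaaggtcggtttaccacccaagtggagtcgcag
Tnfrsf4 (chr4:156013445-156013744, plus strand): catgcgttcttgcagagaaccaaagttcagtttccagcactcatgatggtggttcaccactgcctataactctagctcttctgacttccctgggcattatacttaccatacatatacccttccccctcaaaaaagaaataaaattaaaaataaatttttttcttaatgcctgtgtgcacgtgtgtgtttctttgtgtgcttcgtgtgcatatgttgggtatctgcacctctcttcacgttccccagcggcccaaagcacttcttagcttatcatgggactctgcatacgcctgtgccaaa
Tnfrsf18 (chr4:156026072-156026371, plus strand): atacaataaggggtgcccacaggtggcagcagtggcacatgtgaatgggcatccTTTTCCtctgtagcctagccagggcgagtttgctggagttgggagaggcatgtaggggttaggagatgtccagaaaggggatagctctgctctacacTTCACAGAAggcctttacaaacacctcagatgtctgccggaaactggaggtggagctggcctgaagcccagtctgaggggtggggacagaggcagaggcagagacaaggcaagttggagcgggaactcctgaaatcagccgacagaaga
Tnfrsf9, upstream start (chr4:150919905-150920204, plus strand): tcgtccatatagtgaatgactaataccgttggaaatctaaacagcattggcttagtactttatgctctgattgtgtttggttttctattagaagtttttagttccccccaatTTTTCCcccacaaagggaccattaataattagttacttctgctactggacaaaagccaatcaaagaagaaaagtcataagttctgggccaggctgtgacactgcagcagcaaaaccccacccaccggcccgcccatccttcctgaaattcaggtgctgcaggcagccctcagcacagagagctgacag
Tnfrsf9, downstream start (chr4:150927749-150928048, plus strand): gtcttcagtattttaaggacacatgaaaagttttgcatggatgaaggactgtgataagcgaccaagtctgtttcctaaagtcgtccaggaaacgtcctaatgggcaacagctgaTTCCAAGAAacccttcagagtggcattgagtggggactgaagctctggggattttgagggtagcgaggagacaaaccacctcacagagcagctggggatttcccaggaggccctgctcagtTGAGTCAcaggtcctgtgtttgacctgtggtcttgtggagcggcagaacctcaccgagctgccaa
TTCNNNGAA was found in 5 of the 9 promoters, those of Tnfrsf18, Tnfrsf1a, Tnfrsf1b, Fas and the downstream start of Tnfrsf9, against 8.30% of all 32851 promoters. TGANTCA was found in 2 of 9, the downstream start of Tnfrsf9 and Fas, against 7.81% of all promoters. GGAAAA was found in 5 of 9, of Cd27, Tnfrsf18, Fas, Fasl and the upstream start of Tnfrsf9, against 23.4%. The promoter of Tnfrsf4 held none of the 3 motifs. A match describes letters in the window and not a bound site.

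The comparison asked how the transcripts of these receptors differ between the CM cells of IL-15 cultures and the E/EM cells of IL-2 cultures. Cd27 had a higher signal in IL-15 cells and the 9 other genes had a lower mean. Each log2 ratio divides the IL-15 signal by the IL-2 signal, and negative values mean less signal in IL-15 cells. By a rule of size of 2-fold, Tnfrsf4, Tnfrsf9 and Icos were lower in IL-15 cells and Cd27 was higher. Among all 10948 named genes with a ratio, the shares past the same rule were 5.63% (lower) and 2.74% (higher), and 50.3% had a ratio below 0. Past 3-fold were Tnfrsf4 (lower) and Cd27 (higher), against 1.55% and 0.557% of all genes. With the brightest probe set of each gene Cd27 had 1.45, under 3-fold, and Tnfrsf9 -2.80, past it. The median of the 10 genes was -0.44, against -0.0025 for all genes.

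**Figure D1:**
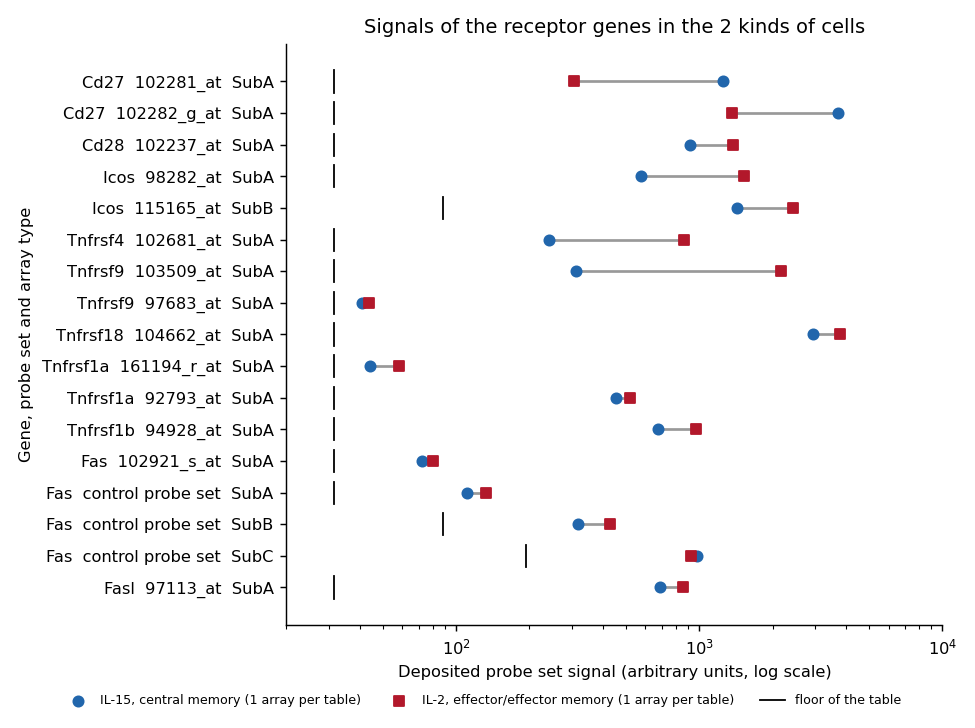
Deposited signals (arbitrary units, log scale) of each probe set of the 10 genes, with a circle for the IL-15 (central memory) array, a square for the IL-2 (effector/effector memory) array and a black tick for the floor of the table. Both Cd27 probe sets have the circle to the right, and Tnfrsf9 has 1 widely separated pair (312.0 and 2166.7) and 1 close pair near the floor (41.1 and 43.8).

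Cd27, a receptor of resting and memory T cells that binds CD70 and supports survival, was the gene with the higher IL-15 signal. Its first probe set, 102281_at, had signals of 1248.1 in IL-15 cells and 304.7 in IL-2 cells, a log2 ratio of 2.03 or 4.10-fold. Its second, 102282_g_at, had signals of 3725.6 and 1363.0, a log2 ratio of 1.45 or 2.73-fold. Both probe sets were higher in IL-15 cells and well above the floor in both. The mean was 1.74 ± 0.41 (SD, 2 probe sets), 3.35-fold, and 42 of the 10948 genes (0.384%) had a higher ratio. The probe sets were designed from the same sequence record, and the letter in the second name marks a probe set that may share probes with others. Without it the ratio of Cd27 was 2.03.

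Tnfrsf4, which encodes OX40, a receptor induced by stimulation that prolongs T cell responses, had the lowest mean ratio of the 10 genes, although 1 probe set of Tnfrsf9 was lower. Its single probe set gave signals of 240.7 in IL-15 cells and 865.1 in IL-2 cells. The IL-15 signal was thus 3.59-fold lower, a log2 ratio of -1.85, and was 7.70 times the floor. In the whole set 105 genes (0.959%) had a lower ratio. A gene measured by 1 probe set has no spread of its own. For scale, the median SD over the probe sets of a gene was 0.322 in 4097 genes with at least 2.

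Tnfrsf9, which encodes 4-1BB, a costimulatory receptor of activated CD8+ cells, was measured by 2 probe sets that disagreed. Probe set 103509_at had signals of 312.0 in IL-15 cells and 2166.7 in IL-2 cells, 6.94-fold lower in IL-15 cells with a log2 ratio of -2.80. Probe set 97683_at had signals of 41.1 and 43.8, a log2 ratio of -0.09. The first probe set was clearly separated between the arrays, and the signals of the second were only 1.31 and 1.40 times the floor. Their mean of -1.44 ± 1.91 (SD, 2 probe sets) therefore describes neither of them. The gap of 2.70 was reached or exceeded by 21 of 4097 genes (0.513%) with at least 2 probe sets, Tnfrsf9 included. With probe sets under 2 times the floor left out, an alternative chosen after seeing the data, Tnfrsf9 had -2.80.

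Icos, an inducible relative of Cd28, was lower in IL-15 cells on both array types that carried it. On SubA its probe set had signals of 576.1 in IL-15 cells and 1532.4 in IL-2 cells, a log2 ratio of -1.41. On SubB another probe set had signals of 1424.4 and 2419.9, a log2 ratio of -0.76. Both probe sets gave the same direction, but only that of SubA passed 2-fold. The mean was -1.09 ± 0.46 (SD, 2 probe sets) and 4.84% of genes had a lower ratio. Icos fell short of 2-fold with the brighter probe set alone, at -0.76, and with each table centred on its actin and Gapdh controls, at -0.96.

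Cd28, the receptor for CD80 and CD86 that gives the classical second signal, had a smaller difference than Icos. Its probe set had signals of 916.5 in IL-15 cells and 1381.4 in IL-2 cells. The IL-15 signal was 1.51-fold lower, a log2 ratio of -0.59, with 13.6% of genes at a lower ratio. Cd28 and Icos lie on chromosome 1 with 1 protein-coding gene between them in the RefSeq order, Ctla4. This inhibitory receptor for the same ligands as Cd28 gave 880 in IL-15 and 2472 in IL-2 cells, for a log2 ratio of -1.49. All 3 neighbours had lower IL-15 signals.

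Tnfrsf18, which encodes GITR, lies next to Tnfrsf4 on chromosome 4 with 0 protein-coding genes between them. Its probe set had signals of 2944.1 in IL-15 cells and 3803.9 in IL-2 cells, at least 94.1 times the floor. The log2 ratio of Tnfrsf18 was -0.37, or 1.29-fold lower, against -1.85 for Tnfrsf4. Both were lower in IL-15 cells, but 22.9% of all genes had a ratio lower than that of Tnfrsf18 and 0.959% one lower than that of Tnfrsf4. Each value rests on 1 probe set, and the difference between them was not tested.

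**Figure D2:**
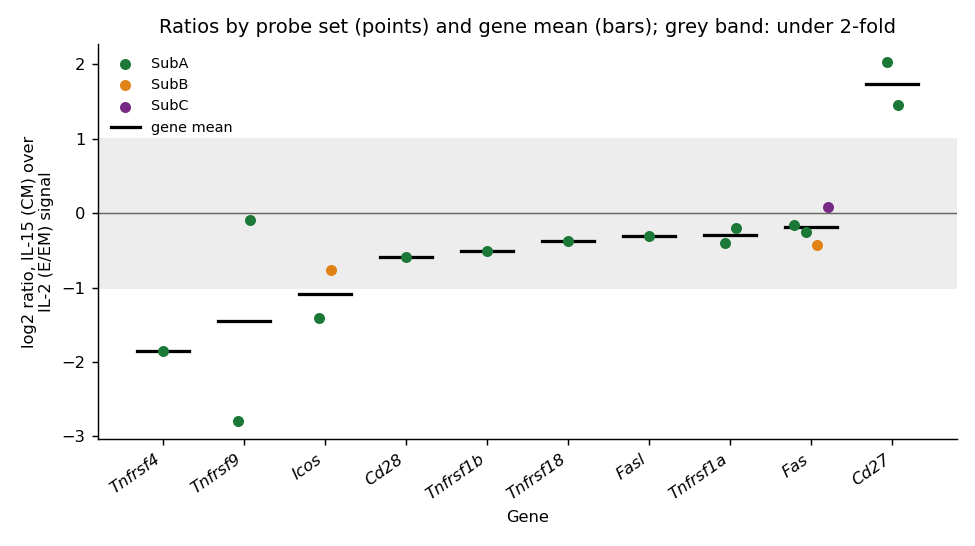
Log2 ratios of IL-15 (CM) over IL-2 (E/EM) signal for the 10 genes in the order of their means; points are probe sets coloured by array type, bars are gene means and the grey band covers differences under 2-fold. Tnfrsf4 (-1.85), Tnfrsf9 (-1.44) and Icos (-1.09) lie below the band, Cd27 (1.74) above it, and the points of Tnfrsf9 lie 2.70 apart.

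The receptors for TNF itself differed little. Tnfrsf1b, the receptor without a death domain that is prominent on activated T cells, had signals of 678.2 in IL-15 cells and 965.6 in IL-2 cells, a log2 ratio of -0.51. Tnfrsf1a, the receptor with a death domain, had signals of 452.8 and 518.0 with its brighter probe set, a log2 ratio of -0.19. Its second probe set, 161194_r_at, had signals of 44.2 and 58.3, close to the floor, and a log2 ratio of -0.40. All 3 probe sets were lower in IL-15 cells and none reached 2-fold. The mean of Tnfrsf1a was -0.30 ± 0.15 (SD, 2 probe sets), a fold of 1.23, and that of Tnfrsf1b a fold of 1.42.

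Fas, the death receptor through which activated lymphocytes can be removed, had the mean closest to 0 of the 10 genes. Probe set 102921_s_at on SubA had signals of 72.2 in IL-15 cells and 80.3 in IL-2 cells, a log2 ratio of -0.15. A control probe set for Fas was carried by all 3 array types. In IL-15 and IL-2 cells, respectively, its SubA signals were 111.1 and 132.3, its SubB signals 317.9 and 427.2 and its SubC signals 975.8 and 920.2. Its log2 ratios were -0.25, -0.43 and 0.08, so it was lower in IL-15 cells on SubA and SubB and higher on SubC. The gene mean was -0.19 ± 0.21 (SD, 4 values), closer to 0 than its spread. The signals of this probe set also differed between array types within a cell kind, from 111.1 to 975.8 in IL-15 cells, so levels were not compared across tables.

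The median ratio of the actin and Gapdh control probe sets was also lowest on SubB and highest on SubC. SubA had a median of -0.08 over these 6 probe sets, SubB one of -0.16 and SubC one of 0.24. Measured against that median, the Fas control probe set had -0.17, -0.26 and -0.16, below the controls on each array type. Over 19 control probe sets for mouse transcripts above the floor on all 6 arrays, the median SD of a ratio over the 3 array types was 0.251. Whether one RNA sample served all array types is not stated in the labels.

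**Figure D3:**
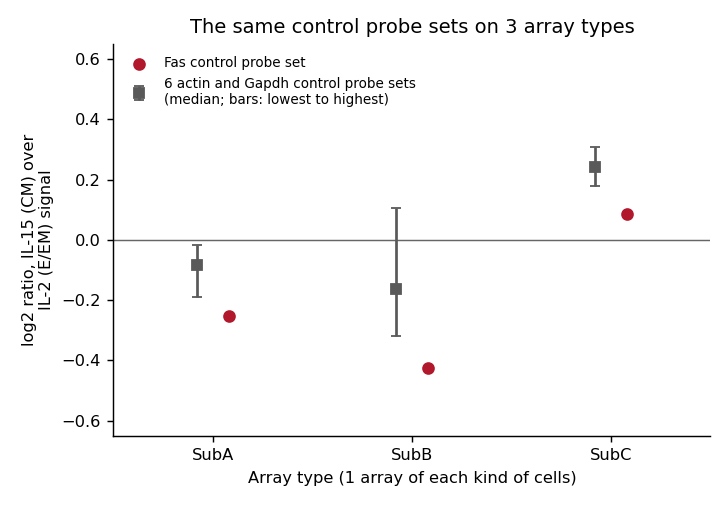
Log2 ratio of IL-15 (CM) over IL-2 (E/EM) signal by array type for the Fas control probe set (red points) and for 6 actin and Gapdh control probe sets (grey squares, median; bars, lowest to highest). The Fas points at -0.25, -0.43 and 0.08 lie below the control medians at -0.08, -0.16 and 0.24.

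Fasl, the ligand that engages Fas on target cells, differed little between the cells. Its probe set had signals of 690.8 in IL-15 cells and 852.7 in IL-2 cells, at least 22.1 times the floor. The log2 ratio was -0.30, a fold of 1.23, and 26.4% of genes had a lower ratio. Fas and Fasl thus both stayed under 2-fold.

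In the order of the means, Tnfrsf4 was followed by Tnfrsf9, Icos, Cd28, Tnfrsf1b, Tnfrsf18, Fasl, Tnfrsf1a, Fas and Cd27. The first 2 change places where the dim probe set of Tnfrsf9 is left out, at -2.80 for Tnfrsf9 and -1.85 for Tnfrsf4. From Cd28 to Fas the means ran from -0.59 to -0.19. Neighbours in that stretch lay closer together than the median probe set SD of 0.322 and their order is not settled. Cd27 stood apart from the rest, with both of its probe sets at 1.45 or more while the highest of the other 15 values was 0.08.

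Of 18 ligand genes in the list, 14 were named on the arrays and 11 had a ratio, with a median of -1.08. Of these, 6 passed the 2-fold rule as lower in IL-15 cells and 0 as higher, against 5.63% and 2.74% of all genes. Only 2 of 6 passed when probe sets under 2 times the floor were left out, with a median of -0.41. The share of all genes past 2-fold as lower was then 4.13%. Tnfsf9, the ligand of Tnfrsf9, had signals of 67.8 in IL-15 cells and 183.7 in IL-2 cells, a log2 ratio of -1.44. Tnfsf4, the ligand of Tnfrsf4, had signals of 36 and 101.2, a log2 ratio of -1.49 with the weaker signal only 1.15 times the floor. For both of these pairs the receptor and its ligand were lower in IL-15 cells. Icosl, the ligand of Icos, gave 168.4 in IL-15 and 289.9 in IL-2 cells, for a log2 ratio of -0.78.

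Cd70, the ligand of Cd27, lay at the floor, with signals of 26.2 in IL-15 cells and 33.2 in IL-2 cells. Of the ligands of Cd28, Cd80 had signals of 49 and 142.8 with 1 probe set, a log2 ratio of -1.54, and 1.5 and 50 with the other, which was above the floor in IL-2 cells alone. Cd86 had signals of 17.9 and 44.7 with its brightest probe set on SubA. These are also genes of antigen-presenting cells. Tnf had signals of 256.4 in IL-15 cells and 419.9 in IL-2 cells, a log2 ratio of -0.71. The probe sets of Lta, a second ligand of the TNF receptors, gave -2.60 and 0.44 and so disagreed, and the second was the dimmer. The remaining ligands past 2-fold were Tnfsf11 (RANKL) at -2.79 and Tnfsf13b (BAFF), which supports B cells, at -1.16. Tnfsf11 had signals of 43.1 and 297.6, the weaker only 1.38 times the floor. Tnfsf13b had signals of 170.9 and 382.2, the weaker 1.94 times the floor.

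**Figure D4:**
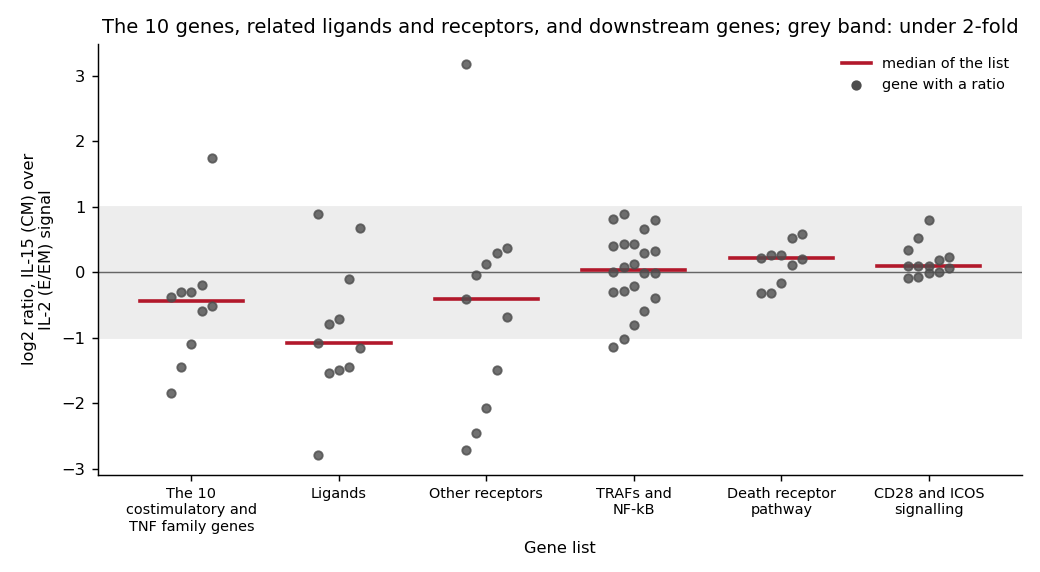
Log2 ratios of IL-15 (CM) over IL-2 (E/EM) signal for genes with a ratio (points) in the 10 genes and in 5 related lists, with the list median as a red line and differences under 2-fold in grey. The median is -0.44 for the 10 genes and -1.08 for ligands, and 0.04, 0.21 and 0.10 for the TRAF and NF-kB, death receptor and CD28 signalling lists.

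Other receptors of these families were spread in both directions. Of 24 in the list, 19 were named and 11 had a ratio, with a median of -0.40. Of these, 4 were past 2-fold as lower and 1 as higher, against 5.63% and 2.74% of all genes. Besides Ctla4, the inhibitory receptor Pdcd1 had -2.71, Tnfrsf8 (CD30) -2.46 and the decoy receptor gene Tnfrsf23 -2.07, and Btla, an inhibitory receptor, had 3.19. The weaker signals of Pdcd1, Tnfrsf8 and Btla were 1.22, 1.36 and 1.42 times the floor. With probe sets under 2 times the floor left out, 2 of 5 genes passed as lower and 0 as higher, against 4.13% and 2.26% of all genes. Tnfrsf8 lies next to Tnfrsf1b on chromosome 4, and their ratios were -2.46 and -0.51. Tnfrsf11b, the secreted decoy receptor osteoprotegerin, was at least 10.8-fold lower in IL-15 cells, Tnfrsf13c at least 5.73-fold lower and Tnfrsf12a at least 3.01-fold lower, each above the floor in IL-2 cells alone. Such a bound is the brighter signal over the floor.

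Lists of genes downstream of the receptors or linked to them had medians near 0. Of all genes, 5.63% passed 2-fold as lower and 2.74% as higher. At such shares few genes are expected past 2-fold in short lists, so low counts are no result about these lists. In the TRAF adaptor and NF-kB list 22 of 27 genes had a ratio, with 2 past 2-fold as lower, 0 as higher and a median of 0.04. Traf2, an adaptor of many TNF receptors, had -1.14 ± 1.19 (SD, 2 probe sets), and without SubC it had -0.30. Birc3, an inhibitor of apoptosis bound by TRAF proteins, had -1.02 with its SubA probe set. Its SubB probe set went the opposite way, with 164.5 in IL-15 cells and 82.3 in IL-2 cells, at least 1.87-fold higher in IL-15 cells. With the floor halved that probe set entered the mean, which was then -0.01. In the death receptor list, which holds the adaptor Fadd, Casp8 and its regulator Cflar, 0 of 10 genes passed 2-fold, with a median of 0.21 and a range from -0.32 to 0.59. In the CD28 and ICOS signalling list 0 of 13 genes passed 2-fold, with a median of 0.10 and a range from -0.09 to 0.81. That list holds Rc3h1, which encodes an RNA-binding protein rather than a signalling protein and whose ratio of 0.10 is the list median. It also holds Pdk1, which in mouse is a kinase of pyruvate dehydrogenase and not of this pathway. Without Pdk1 0 of 12 genes passed, with a median of 0.09. Another probe set of the kinase gene Pik3cd in that list was at least 2.48-fold lower in IL-15 cells, while its other 2 had -0.28 and 0.28. Single probe sets of Vav1 (1.39 and 1.12) and Rc3h1 (1.15) in that list were past 2-fold as higher. So were single probe sets of Ikbkb (1.13 and 1.07) and Cyld (1.01) in the TRAF and NF-kB list. The means of these genes stayed under 2-fold.

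The labelled cell type was checked by its markers. Of 7 T cell and CD8 markers, 7 exceeded the floor in both, and Cd8a had signals of 5882.7 in IL-15 cells and 5133.8 in IL-2 cells. Some markers of other cells were also above the floor, with SubA signals below those of Cd8a. Several lay well above the floor, such as Cd79b with 370.9 in IL-15 cells and 284 in IL-2 cells. For the 5 dendritic cell markers, 5 were above the floor in both kinds and the summed SubA signal was 791.9 in IL-15 cells and 1131.7 in IL-2 cells. H2-Ab1 had signals of 211.0 and 516.5, Itgax went the opposite way, with 130.3 and 43.1, and Xcr1 had 72.8 and 71.1. For macrophages and monocytes the sums were 317.6 and 462.4, with 3 of 5 markers above the floor in both. The B cell sums were 615.5 and 618, with 5 of 5 named markers above the floor. Cd79b gave the largest part of both sums. Cd79a (55.9 and 79.5) and the brightest probe sets of Ms4a1 (46.8 and 64.7) and Pax5 (67.7 and 84.8) were dimmer and lower in IL-15 cells. The probe sets of Blk went opposite ways, with 56.1 and 42.2 and with 3.5 and 38.6. The helper and regulatory T cell sums were 159.6 and 307.2, with 1 and 2 of 3 named markers above the floor. Among them Cd4 had signals of 131.7 and 49.3, and Ikzf2 was under the floor in both. Zbtb7b went the opposite way to Cd4 and was above the floor in IL-2 cells alone. Its signals in IL-15 and IL-2 cells were 19.8 and 239.5 on SubA and 63.3 and 857.9 on SubB. The single named natural killer marker, Ncr1, had signals of 1.6 and 17.2, under the floor in both. The part of such cells in the results was not tested, and in bulk RNA fewer cells of a type and less RNA per cell cannot be told apart.

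The 10 genes were followed through 12 alternative ways of processing the same tables. Cd27, Tnfrsf4 and Tnfrsf9 were past 2-fold in the same direction in 12 of 12, and Icos in 10 of 12. Cd28, Tnfrsf1a, Tnfrsf1b, Tnfrsf18 and Fasl were below 0 and under 2-fold in all 12, and Fas was below 0 in 10 of 12.

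**Figure D5:**
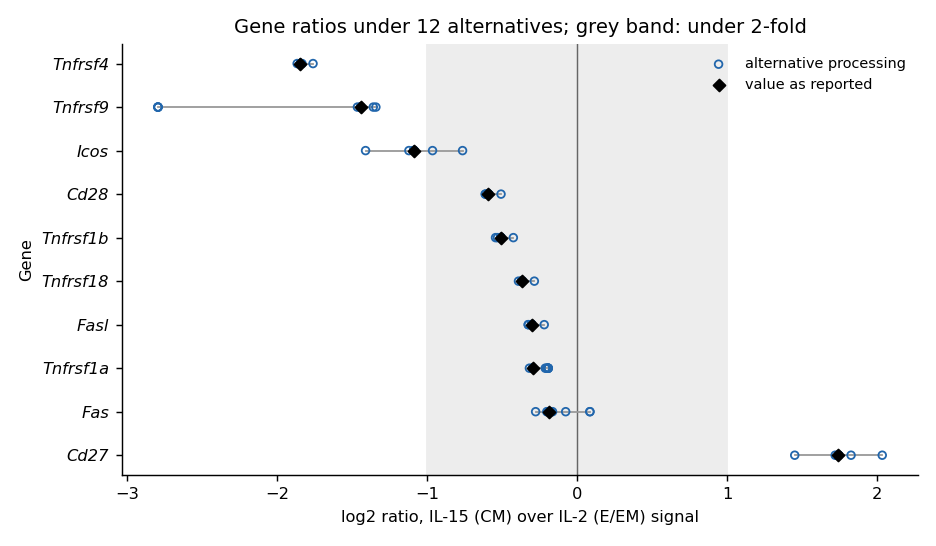
Log2 ratio of each gene as reported (black diamonds) and under 12 alternative ways of processing (open circles), with differences under 2-fold in grey. Tnfrsf9 ranges from -2.80 to -1.34, Icos from -1.41 to -0.76 and Cd27 from 1.45 to 2.03. Tnfrsf4 stays between -1.87 and -1.76, but most alternatives cannot change the value of its single probe set.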

How the data were processed

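Total RNA of 2 kinds of cultured CD8+ T cells was measured on 6 arrays, 1 per kind and array type, grouped by their titles. The authors deposited linear intensities per probe set; how they were scaled, and with which software, the sources used here do not state. The mean signal without the lowest and highest 2% of each array lay between 500.1 and 500.3, the arrays of a table differed in it by at most 0.00858%, and the values were used as deposited. Array medians were 109.7 and 118.65 (SubA), 183.4 and 214.8 (SubB), and 172.25 and 169.8 (SubC) in IL-15 and IL-2 cells.

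For each table, the 90th percentile of 15 bacterial poly-A control probe sets was taken per array, and the larger of the 2 served as floor. On SubC 47.1% and 47.3% of probe sets lay above it, on SubA and SubB 64.3% to 69.1%. The number of arrays limits the precision. The marker used for sorting is not reported here. A gene's value was the mean log2 ratio over its probe sets above the floor on both arrays. Symbols came from GEO's platform annotation and were checked against RefSeq, GRCm38.p6, by gene identifier, which changed 0; 10855, 10603 and 7739 probe sets had 1 symbol, 396, 178 and 150 several, and 1237, 1696 and 4045 none. From the lists, genes past 2-fold were named, up to 5 in each direction by size, with bounds of at least 2-fold and the ligands of the 10 genes. Genes and lists were chosen with earlier results of these data known. Calculations, in Python 3.11.15 with pandas 2.3.3, were tested on simulated data. The simulation gave all probe sets of a gene the same ratio with little noise, so it did not cover disagreement between probe sets. The alternatives were quantile normalization, centring, 3 other floors, the brightest probe set, no shared probe sets, fewer array types and a 3-fold rule. The setting without shared probe sets dropped every probe set with a letter before the ending of its name. This includes letters that do not mark shared probes, as in 161194_r_at of Tnfrsf1a. Centring on controls, averaging the Fas control probe set and leaving out dim probe sets were chosen after seeing the data, as was leaving Pdk1 out of a list. A search of the promoters for a string narrower than the usual NF-kB motif is not reported here.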

Additional observations from a re-analysis of the deposited data

How the results depend on the processing

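With a 3-fold rule, 1 of the 10 genes was lower in IL-15 cells (Tnfrsf4) and 1 higher (Cd27), where 1.55% and 0.557% of all genes passed. These calls rest on means over probe sets, and with the brightest probe set Cd27 had 1.45, under 3-fold, and Tnfrsf9 -2.80, past it. Under the other alternatives 2 or 3 of the 10 genes were at least 2-fold lower and 1 higher, and their median ran from -0.46 to -0.36. Tnfrsf9 went from -1.44 to -2.80 with the floor doubled, with the brightest probe set and with dim probe sets left out. It did the same with a floor set, for each table, at the higher of its arrays' 60th percentiles. Fas went from -0.19 to 0.08 with the brightest probe set and with the 60th percentile floor, which leave the SubC control probe set alone. Lta turned from -1.08 to 0.44 without shared probe sets. Signal over the floor limits the ligand and other receptor lists. Ligands past 2-fold as lower went from 6 to 2 with the floor doubled or dim probe sets left out and to 1 with the 60th percentile floor or a 3-fold rule, and other receptors from 4 to 2 and to 1 under those floors. The 1 higher receptor, Btla, was lost under the same floors and on SubA alone, and 1 ligand was higher on SubA alone and with tables centred on controls. TRAF and NF-kB genes past 2-fold as lower went from 2 to 1 with the floor halved, without shared probe sets, without SubC, on SubA alone or centred on controls and to 0 with a 3-fold rule, and 1 was higher on SubA alone or with the 60th percentile floor. CD28 and ICOS signalling genes past 2-fold as higher went from 0 to 2 with the brightest probe set and to 1 without SubC. The share of all genes at least 2-fold lower was 3.43% with the 60th percentile floor. No paired analysis was possible because each group holds 1 sample. Leaving out a replicate was not possible for the same reason.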

Other observations

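The disagreement of the Tnfrsf9 probe sets can be set beside that of other genes. Among genes whose brightest probe set differed at least 2-fold, 419 further probe sets at least 2 times the floor had a median log2 ratio of 0.40 in the direction of the brightest, and 22.7% of them had the opposite sign. For 167 further probe sets under 2 times the floor the median was 0.30 and 37.1% had the opposite sign. The median size of the brightest probe set's ratio was 1.29 and 1.33 in these cases. Choosing genes by the brightest probe set favours large values in it, so these shares describe the arrays and are no error rate. They do not cover genes with 1 probe set, which here are Tnfrsf4, Cd28, Tnfrsf18, Tnfrsf1b and Fasl. For these genes agreement between probe sets could not be examined.

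CD30 and its ligand had ratios of opposite sign, a pair singled out after its values were seen. The receptor gene Tnfrsf8 had signals of 42.5 in IL-15 cells and 233.7 in IL-2 cells, a log2 ratio of -2.46. The weaker signal was only 1.36 times the floor. Another probe set of Tnfrsf8 had 24.4 in IL-15 cells and 12.9 in IL-2 cells, under the floor in both and without a ratio. The ligand gene Tnfsf8 had 0.89 ± 0.19 (SD, 2 probe sets), with signals of 225.9 and 111 on SubA and 3739.6 and 2215.1 on SubB. Both Tnfsf8 probe sets were higher in IL-15 cells, unlike the ligands of Tnfrsf4 and Tnfrsf9.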
